A study of Homo sapiens with 4 samples.

Results

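ATF4 and 9 further mRNAs of the integrated stress response were followed in RNA recovered with an antibody against PHGDH. The 10 members were chosen by a list of known roles, which sets no threshold on the measured values, and matched by symbol out of 44715 gene symbols. They are 5 mRNAs whose translation is regulated by upstream reading frames (ATF4, ATF5, DDIT3, PPP1R15A and PPP1R15B) and 5 amino-acid-response or stress targets of the ATF4 protein (TRIB3, ASNS, CHAC1, SESN2 and DDIT4). The question put to the data was whether any recovery of ATF4 was shared by the group.

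PHGDH is the enzyme that starts serine synthesis from a glycolytic intermediate, and the study asked whether the protein associates with RNA. In RNA immunoprecipitation followed by sequencing (RIP-seq), a protein is pulled from a lysate with an antibody and the RNA that comes with it is sequenced. All 4 libraries came from HEK293T, an established line of human embryonic kidney origin with the SV40 large T antigen. The cells were lysed and the complexes precipitated under native conditions. In 2 libraries the antibody was anti-PHGDH and in 2 it was anti-IgG, the control; the series calls the replicates biological, and no further treatment, clone or genotype is named. An input library was not analysed here, so recovery cannot be set against the level of each mRNA in the cells.

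When an eIF2 kinase phosphorylates the initiation factor eIF2, most translation falls, while mRNAs with certain upstream reading frames are translated better. ATF4 is the best known of these. Its product is a basic leucine zipper transcription factor that switches on genes for amino acid synthesis and transport, the PHGDH gene among them, and with DDIT3 it can also turn on genes of cell death. The libraries measure how much of each mRNA was recovered, not how well it was translated.

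The targets are often recognised by the element through which ATF4 and its C/EBP partners bind DNA, so the promoters of the members were searched for it. The motif was TGATGNAAN, on both strands, in the RefSeq promoter windows of GRCh38.p14 (250 bases before the start to 50 after it). The 10 members have 17 such windows, and 3 members (ASNS, CHAC1 and PPP1R15B) held a match in 1 window each. Of all 35116 windows of the same length, 1268 (3.61%) held one. The 3 stretches are shown because they hold a match to the motif in the members' own sequence, and binding was not tested. Each is on its gene's strand, 5′ to 3′, with the match in capitals.
ASNS: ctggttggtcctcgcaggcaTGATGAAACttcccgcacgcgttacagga
CHAC1: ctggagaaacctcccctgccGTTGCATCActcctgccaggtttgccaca
PPP1R15B: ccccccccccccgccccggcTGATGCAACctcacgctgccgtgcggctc
The ASNS stretch lies at chr7:97872448-97872496 on the minus strand, with the match starting at position -68 from the start site. The CHAC1 stretch lies at chr15:40953241-40953289 on the plus strand and holds the match on the opposite strand. The PPP1R15B stretch lies at chr1:204412016-204412064 on the minus strand. A match is only a description of these letters. The 3 genes with it did not stand together in the pulldown: ASNS was almost unread, and CHAC1 and PPP1R15B are described with the other members.

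The libraries held from 1216477 (anti-PHGDH 2) to 3875746 (IgG 1) reads assigned to genes, and levels are given as CPM, counts scaled so that every library has the same sum. IgG 1 stood apart. It was the deepest library and listed 4148 genes above 0, against 14518 to 16767 in the other 3, and 61.9% of the 9524 genes tested were at 0 in it. A value of 0 is compatible with as many as 3 reads, or 0.774 CPM in IgG 1 and 0.891 to 2.47 CPM in the others; this limit and the intervals below cover counting error only. Mitochondrially encoded genes took 28.8% and 8.69% of the reads in anti-PHGDH 1 and 2, and 3.87% and 3.37% in IgG 1 and 2. Of 4 markers listed for HEK293T, VIM and NEFM were at 75.5 CPM or more in every library, while LHX1 and PAX2 did not exceed 1.90 CPM. Of the markers of other cell types, PTPRC, CD3E, KRT5 and HBB were at 0 in all 4 libraries, ALB did not exceed 0.297 CPM, and COL1A1 ran from 0 to 12.3 CPM. With 2 libraries a group, an exact permutation test cannot go below p = 0.333, and p-values rest on the limma fit across all genes tested.

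ATF4 had the highest log2 difference of the 8 members tested in the reported fit. All 8 differences were above 0, but so was the median of all genes tested, at 1.92, and 7 of the 8 lay above it. After centring on library medians, 4 of the 8 were above 0, but 7 still lay above the median of all genes tested, then -0.57. After quantile normalization 4 were above 0 and 4 above that median, then -0.050. Without IgG 1, 5 were above 0 and 4 above the median, then 0.14. A difference between ATF4 and the rest of the group was not tested. ATF4 lay at least 2-fold above both IgG libraries in both anti-PHGDH libraries, as 1 of the 8 (12.5%), against 9.3% of all genes tested. ATF5, TRIB3 and PPP1R15B were above both IgG libraries too, so that the groups did not overlap for 4 of 8, against 38.3% of all genes. DDIT3, DDIT4, CHAC1 and PPP1R15A overlapped between the groups, and ASNS and SESN2 were too low to test. None of the 8 passed an adjusted p of 0.05 in limma, edgeR or DESeq2 with all 4 libraries. ATF4 ranked first among the members in 17 of 20 ways of processing. It ranked 5 with a pseudocount of 0.1 and 4 in the edgeR fit that has the replicate block. With IgG 2 left out it ranked 2. Settings that changed only the filter, the trend or the limma replicate block kept the difference of each of the 8 that they tested. Centring shifted all genes by 1 constant, so the rank could hardly change in any of these. With 61.9% of the genes tested at 0 in IgG 1, the median of that library is 0. Centring therefore sets the floor of IgG 1 level with the medians of the other libraries.

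**Figure D1:**
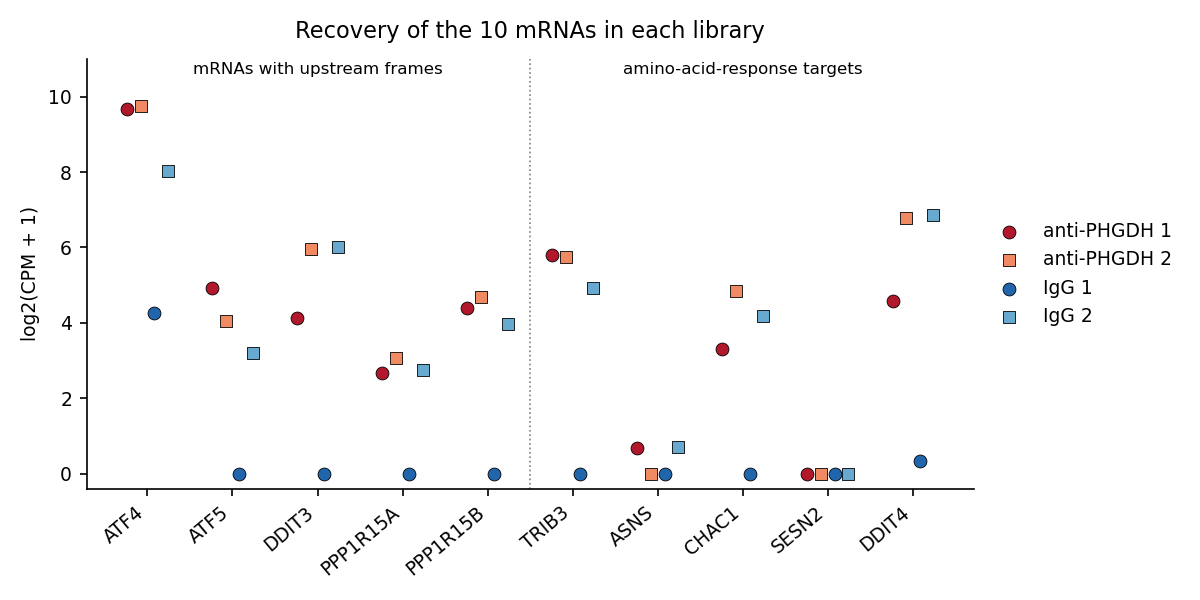
The level of each of the 10 mRNAs as log2(CPM + 1) on the vertical axis, with 1 point per library, red shades for anti-PHGDH and blue shades for IgG. ATF4 sits at 9.67 and 9.76 with anti-PHGDH and at 4.25 and 8.02 with IgG, and the IgG 1 points of the other members lie at or near 0.

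The ATF4 gene lies at chr22:39520559-39522686 (RefSeq, GRCh38.p14), and no other RefSeq gene overlaps its span. Anti-PHGDH 1 and 2 gave 814 and 866 CPM of ATF4 (mean 839.8 ± 36.5 CPM; SD, n = 2). IgG 1 and 2 gave 18.1 and 259 CPM (mean 139 ± 171 CPM; SD, n = 2). The anti-PHGDH libraries lay close together and the IgG libraries far apart, and the groups did not overlap. The difference was 3.58 on the log2(CPM + 1) scale (SE 1.46; limma adjusted p = 0.677), the highest among the 8 members and above 93.6% of all genes tested. The median over all genes tested was itself 1.92, so ATF4 lay 1.65 above it.

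The size of the difference depended on the IgG library. Against IgG 1, anti-PHGDH 1 held 45.1 times as much ATF4 (95% exact interval 35.6 to 58.0, from 2740 and 70 reads). ATF4 was not the highest member in that pair of libraries. The ratio was at least 70.2 for TRIB3 and at least 37.6 for ATF5, both at 0 in IgG 1 and set to 3 reads there, and it was 88.7 for DDIT4 (15.4 to 3547, on 1 read in IgG 1). PHGDH and BECN1 were likewise at 0 there, with ratios of at least 8462 and 838. Against IgG 2, the ratio was 3.34 for anti-PHGDH 2 (2.97 to 3.75, from 1053 and 410 reads) and 3.14 for anti-PHGDH 1 (2.83 to 3.49). Without IgG 1 the log2 difference was 1.69. Without IgG 2 it was 5.46 (limma adjusted p = 7.8e-08), in a fit that called 7129 of the 9524 genes higher and all 8 members with them. That fit holds IgG 1 alone in its control arm, takes the spread from the anti-PHGDH pair and assumes the same for IgG, so its p measures no variation between IgG libraries.

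The ATF4 value in IgG 2 has a property that nearly all other values lack. CPM values in these tables are whole multiples of the value of 1 read, and the ATF4 value in IgG 2 corresponds to 409.6 reads, while the other 3 ATF4 values are whole reads. It is 1 of 7 values in the 4 tables that are not whole within the rounding of the CPM. How it arose was not tested. Every ratio of ATF4 to IgG 2 rests on that value, and rounding it down or up to a whole read gave ratios of 3.34 and 3.33.

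Among genes at a like CPM in IgG 2, the ratio of ATF4 within replicate number 2 was near the top. There were 725 genes tested whose level in IgG 2 was within 2-fold of that of ATF4, and 7 of them (0.966%) had a higher ratio of anti-PHGDH 2 to IgG 2. The 7, named after their values were seen, were the mitochondrial mRNAs ND6, ND5 and ND2 and the nuclear mRNAs PCBP2, NME4, TRAPPC1 and WASF2. Their ratios ran from 3.602 (WASF2) to 14.3 (ND6). PCBP2, which encodes an RNA-binding protein, reached 1503 and 1585 CPM in anti-PHGDH 1 and 2, compared with 342 and 132 CPM in IgG 1 and 2. Over genes of all levels ATF4 stood above 95.4% of those with a ratio. For anti-PHGDH 1 over the same IgG 2, it stood above 86.5%. The 95th percentile of the ratio was 2.92 among genes at 5 to 20 CPM in IgG 2 and 1.54 among those at 130 to 520 CPM. In the same window 142 genes (19.6%) were at 0 in IgG 1, and of the 583 above 0 there, 126 were at or below the level of ATF4.

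**Figure D2:**
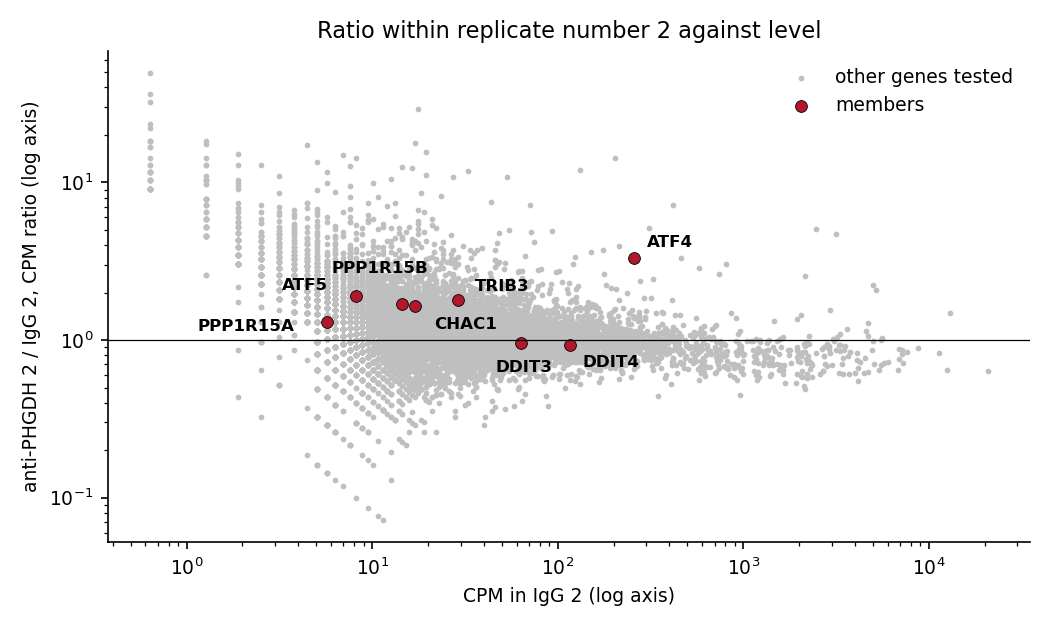
The ratio of CPM in anti-PHGDH 2 to IgG 2 (vertical, log axis) against CPM in IgG 2 (horizontal, log axis) for each gene tested with a value above 0 in both libraries. ATF4 lies at a ratio of 3.34 above most genes of its level, while DDIT3 and DDIT4, the next most abundant members in IgG 2, lie at 0.961 and 0.937.

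The remaining mRNAs with regulatory upstream frames rested on far fewer reads than ATF4. ATF5 encodes the basic leucine zipper factor closest to ATF4 in kind, and its mRNA is also controlled by upstream frames. Anti-PHGDH 1 and 2 gave 29.1 and 15.6 CPM of it, and IgG 1 and 2 gave 0 and 8.23 CPM. The groups did not overlap, and the log2 difference was 2.88 (SE 2.57; limma adjusted p = 0.677). Its ratio to IgG 2 was 1.90 for anti-PHGDH 2 (95% exact interval 0.889 to 4.18, from 19 and 13 reads) and 3.54 for anti-PHGDH 1 (1.98 to 6.88). The intervals of ATF5 overlapped those of ATF4 in both, so at this depth the recoveries of the 2 mRNAs relative to IgG 2 could not be told apart. The ATF5 gene span overlaps those of NUP62 and IL4I1 in RefSeq, and reads from shared exons could be counted to either. NUP62 gave 106 and 88.0 CPM in the anti-PHGDH libraries, against 0 and 107 CPM in the IgG libraries.

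DDIT3 encodes CHOP, the transcription factor of prolonged stress. It reached 16.6 and 60.8 CPM in anti-PHGDH 1 and 2, compared with 0 and 63.3 CPM in IgG 1 and 2. Anti-PHGDH 2 and IgG 2 were level, with a ratio of 0.961 (95% exact interval 0.702 to 1.31), and anti-PHGDH 1 was below IgG 2 at a ratio of 0.263 (0.186 to 0.368). Neither interval overlapped that of ATF4. The log2 difference of 2.04 (SE 2.59; limma adjusted p = 0.677) rested on the 0 in IgG 1 and was -0.96 without that library. The end of DDIT3 overlaps MARS1, and use of strand in the counting is not given in the sources used here.

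PPP1R15A (GADD34) and PPP1R15B (CReP) encode the regulatory subunits that direct protein phosphatase 1 to eIF2 and so end the response, the first induced by stress and the second constitutive. PPP1R15A gave 5.35 and 7.40 CPM in the anti-PHGDH libraries, against 0 and 5.70 CPM in the IgG libraries, on 9 to 18 reads where it was above 0. Its groups overlapped, and its log2 difference was 1.496 (SE 1.66; limma adjusted p = 0.677). PPP1R15B reached 19.9 and 24.7 CPM in anti-PHGDH 1 and 2, compared with 0 and 14.6 CPM in IgG 1 and 2. Its groups did not overlap and its log2 difference was 2.55 (SE 2.67; limma adjusted p = 0.677). Its ratio to IgG 2 was 1.69 (0.951 to 3.05) for anti-PHGDH 2 and 1.37 (0.840 to 2.30) for anti-PHGDH 1. Both intervals included 1. For PPP1R15A the ratio was 1.30 (0.457 to 3.69) for anti-PHGDH 2, and 0.939 for anti-PHGDH 1 with an interval up to 2.37. For anti-PHGDH 2 the intervals of both mRNAs overlapped that of ATF4 (2.97 to 3.75), so they could not be told apart from it there. For anti-PHGDH 1 both lay below that of ATF4 (2.83 to 3.49).

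TRIB3, a pseudokinase induced by ATF4 that feeds back on it, had the second highest difference among the members. It gave 54.4 and 52.6 CPM in the anti-PHGDH libraries, against 0 and 29.1 CPM in the IgG libraries. The anti-PHGDH libraries agreed closely and lay above both IgG libraries. The log2 difference was 3.31 (SE 2.55; limma adjusted p = 0.677), which became 0.85 with IgG 1 left out. Its ratio to IgG 2 was 1.81 (95% exact interval 1.22 to 2.70) for anti-PHGDH 2 and 1.87 (1.34 to 2.64) for anti-PHGDH 1. Both intervals lay above 1 and below the interval of ATF4 in the same libraries.

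CHAC1 encodes an enzyme that degrades glutathione. It reached 8.91 and 28.0 CPM in anti-PHGDH 1 and 2, compared with 0 and 17.1 CPM in IgG 1 and 2. The anti-PHGDH values lay on either side of IgG 2, and the log2 difference was 1.99 (SE 2.59; limma adjusted p = 0.677), or -0.10 without IgG 1. DDIT4 encodes REDD1, an inhibitor of mTORC1 signalling. It gave 22.9 and 109 CPM in the anti-PHGDH libraries, against 0.258 (a single read) and 116 CPM in the IgG libraries. Its ratio to IgG 2 was 0.937 (95% exact interval 0.743 to 1.18) for anti-PHGDH 2 and 0.197 (0.149 to 0.259) for anti-PHGDH 1. The log2 difference was 2.08 (SE 2.33; limma adjusted p = 0.677), which turned to -1.19 when IgG 1 was left out.

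ASNS, which makes asparagine, and SESN2, a leucine sensor that restrains mTORC1, did not reach the filter of 5 CPM in 2 libraries. ASNS had 2 reads in anti-PHGDH 1, 1 read in IgG 2 and 0 in the other libraries. Its span overlaps the lncRNA CZ1P-ASNS and the pseudogene SNRPCP9 in RefSeq, and how reads in shared exons were assigned is not given in the sources used here. CZ1P-ASNS was listed at 0.633 CPM in IgG 2 and at 0 in the other libraries. SESN2 was listed at 0 in all 4, which allows up to 3 reads in each. No difference was detectable for either at this depth.

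**Figure D3:**
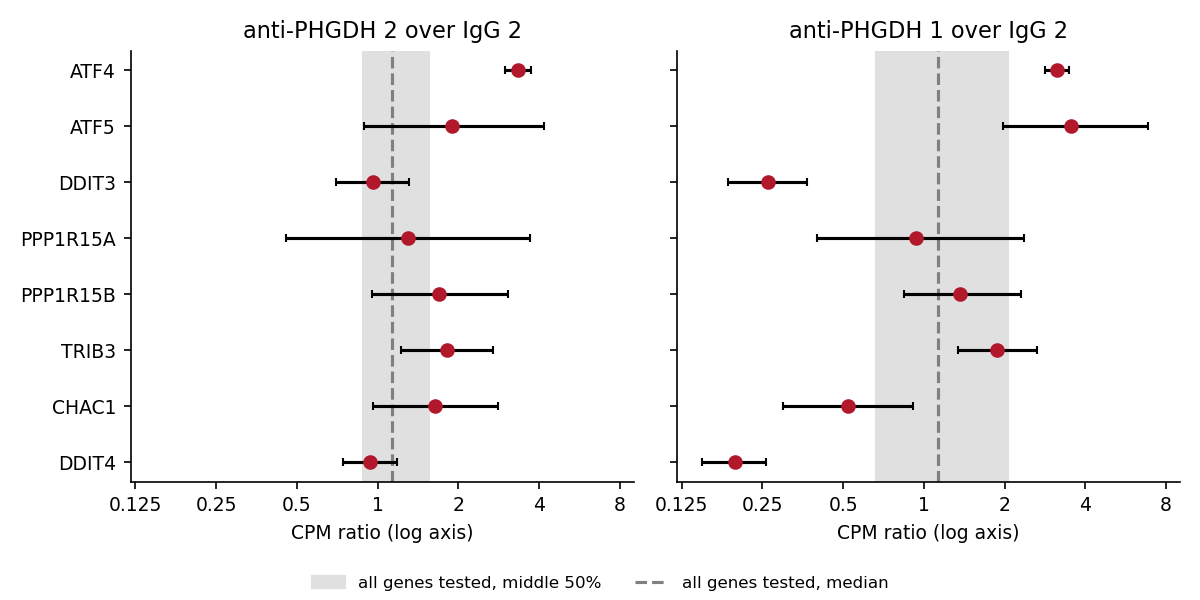
Ratio of CPM in each anti-PHGDH library to CPM in IgG 2 (log axis) for the 8 members tested, with 95% exact intervals for counting error; the grey band and dashed line give the middle 50% and the median of all genes tested. ATF4 lies above 2.8 in both panels, while DDIT3 and DDIT4 lie near 1 for anti-PHGDH 2 and under 0.27 for anti-PHGDH 1.

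The counts over the members stayed near those over all genes. By limma, 0 of the 8 members were called in either direction after adjustment, where 0.0105% of all genes tested were called higher and 0.0% lower. Before adjustment 1 member (ATF4) was under the threshold, against 2.74% of all genes. In edgeR and DESeq2 it was 0 members, before or after adjustment. By the rule that the lower anti-PHGDH value of CPM + 1 be at least 2 times the higher IgG value, 1 of 8 members (12.5%) passed, against 9.3% of all genes tested. After centring on library medians, where the median of IgG 1 is 0, it was 0 of 8, against 109 of the 9524 genes tested. The groups did not overlap, with IgG higher, for 0 of 8, against 6.16% of all genes; with anti-PHGDH higher the share was 50.0%, as above against 38.3%. Within replicate number 2, 1 of 8 members was at least 2-fold higher on CPM + 1, against 12.5% of all genes, and 0 were 2-fold lower, against 1.97%. For anti-PHGDH 1 over IgG 2, 2 of 8 (ATF4 and ATF5) were 2-fold higher, against 24.4% of all genes, and 2 of 8 (DDIT3 and DDIT4) were 2-fold lower, against 14.0%; this comparison shares IgG 2 with the one before. The median log2 difference of the 8 was 2.31, or 0.39 above that of all genes tested. In IgG 1, 6 of the 8 were at 0 (75.0%), against 61.9% of all genes tested.

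A share of reads within each library does not depend on how libraries are scaled against each other. ATF4 made up 83.8% of the reads of the 10 mRNAs in anti-PHGDH 1 (95% exact interval 82.5 to 85.0%, 2740 of 3271 reads) and 74.4% in anti-PHGDH 2 (72.1 to 76.7%, 1053 of 1415). It made up 50.5% in IgG 2 (47.0 to 54.0%, 410 of 812) and 98.6% in IgG 1 (92.4 to 99.96%, 70 of 71). The IgG libraries thus lay on either side of the anti-PHGDH libraries, and the share in IgG 1 rests on the single read of the other members there, against 402 in IgG 2. A second measure within libraries was log2(CPM + 1) of ATF4 minus the median of the other 7 tested. It was 5.28 and 4.90 with anti-PHGDH and 4.25 and 3.85 with IgG, and its groups did not overlap. Unlike the share, this measure does depend on the scaling, through the 1 added to each CPM. In IgG 1 that median is a 0, so the 4.25 is the log2(CPM + 1) of ATF4 alone. The measures thus place IgG 1 on opposite sides of the anti-PHGDH libraries.

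**Figure D4:**
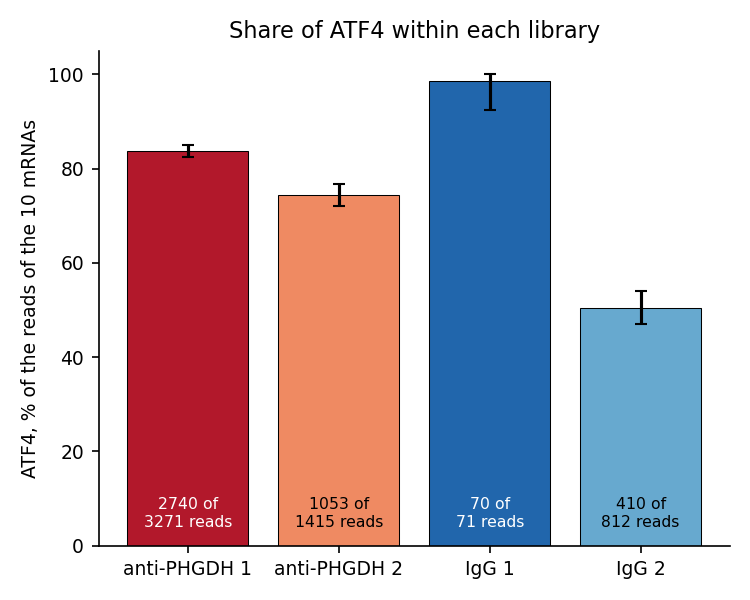
ATF4 as a percentage of the reads of the 10 mRNAs in each library (vertical axis), with bars for the share and 95% exact intervals for counting error. The anti-PHGDH bars stand at 83.8% and 74.4%, between IgG 2 at 50.5% and IgG 1 at 98.6%.

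Across the genes tested, detection in IgG 1 followed the level in IgG 2. Among genes at 5 to 20 CPM in IgG 2, which include ATF5, PPP1R15A, PPP1R15B and CHAC1, 77.5% of 4192 were at 0 in IgG 1. The share was 59.4% at 20 to 50 CPM (TRIB3), 41.2% at 50 to 130 CPM (DDIT3 and DDIT4) and 19.3% at 130 to 520 CPM (ATF4). The part that the 0 values in IgG 1 play in the differences of the members was not tested apart from the fits without IgG 1 given above.

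The anti-PHGDH libraries differed most on 3 members. DDIT4 in anti-PHGDH 1 was 0.211 times its level in anti-PHGDH 2 (95% exact interval 0.157 to 0.281), DDIT3 0.274 times (0.190 to 0.392) and CHAC1 0.319 times (0.189 to 0.537). Only 1.78%, 3.64% and 5.24% of all genes tested had a lower ratio than these 3. ATF4 was at 0.940 times (0.876 to 1.01), TRIB3 at 1.03 times (0.773 to 1.40) and PPP1R15B at 0.807 times (0.517 to 1.29). ATF5 was at 1.86 times (1.13 to 3.23) and PPP1R15A at 0.723 times (0.308 to 1.83), both with intervals that reach past 2-fold. DDIT3 and DDIT4 together took 34.9% of the reads of the 10 mRNAs in IgG 2, 14.6% in anti-PHGDH 2 and 4.07% in anti-PHGDH 1. The 9 members other than ATF4 summed to 158 CPM in anti-PHGDH 1, 298 CPM in anti-PHGDH 2 and 255 CPM in IgG 2.

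PHGDH and BECN1, the other mRNAs the study is known to have followed, serve as reference points in the same libraries. Within replicate number 2 the ratio of PHGDH was 3.32 (95% exact interval 3.05 to 3.62), next to 3.34 for ATF4, and that of BECN1 was 1.85 (1.64 to 2.07), next to 1.81 for TRIB3. The BECN1 values of both libraries are, like that of ATF4 in IgG 2, among the 7 that are not whole reads. Against IgG 2, anti-PHGDH 1 gave 14.2 for PHGDH and 3.14 for ATF4. The PHGDH mRNA encodes the precipitated protein.

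The genes with the pattern most like ATF4 were sought over the 4 libraries as the smallest Euclidean distance in log2(CPM + 1), centred on each gene's mean. They were AAK1 (distance 0.11), AGAP1 (0.15), MLXIPL (0.20), ZNF276 (0.24) and MXRA8 (0.28). All 5 were at 0 in IgG 1 and at 11.4 to 15.8 CPM in IgG 2, so the likeness holds on a scale where a 0 is given the value of the pseudocount. The nearest members were TRIB3 (0.85, rank 296 of 9523), PPP1R15B (1.04, rank 635) and ATF5 (1.05, rank 645), and the farthest was DDIT4 (2.88, rank 6703).

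**Figure D5:**
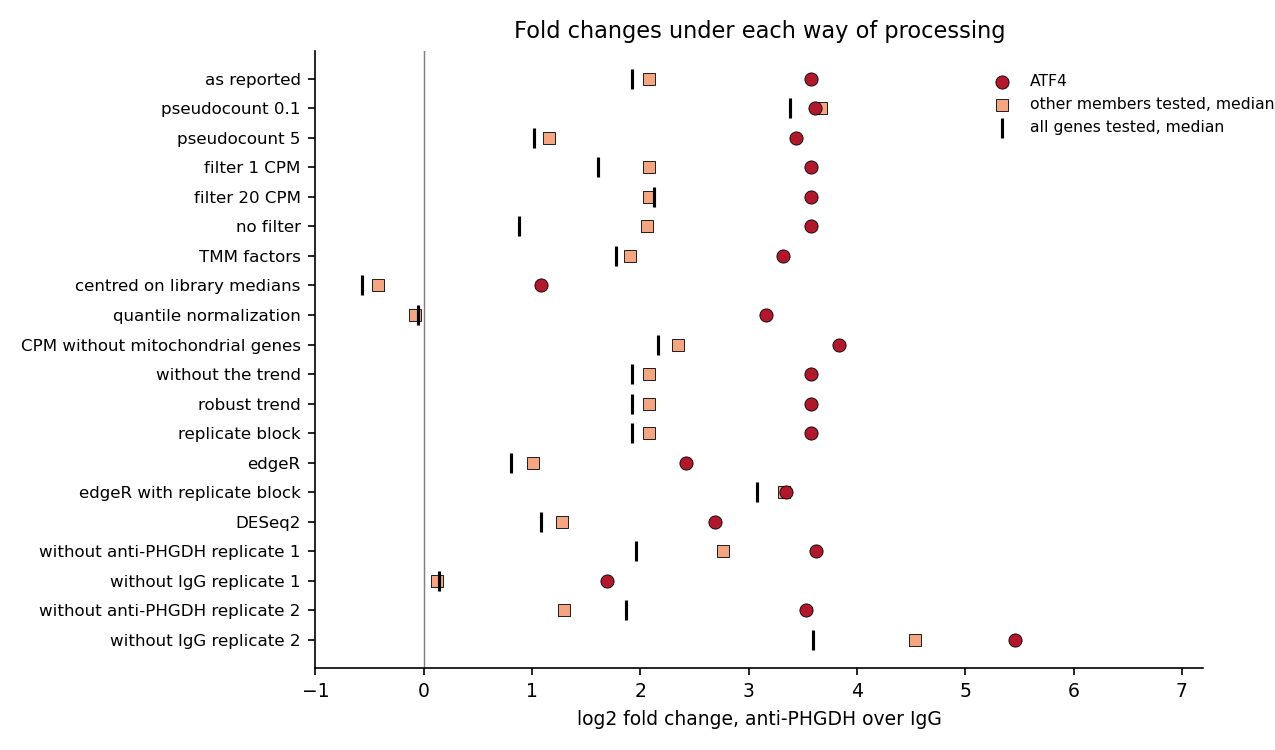
Log2 difference, anti-PHGDH over IgG (horizontal axis), of ATF4, of the median of the other members tested and of the median of all genes tested, with 1 line for each way of processing. ATF4 stays above 0 throughout, from 1.08 to 5.46, and is at or next to the other members' median at a pseudocount of 0.1 and in edgeR with the replicate block.

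Other parts of the pathway were counted from lists of known roles. The eIF2 kinases, eIF2 and eIF2B subunits, phosphatase catalytic subunits and regulators made a list of 19, of which 18 were tested. In either direction 0 passed the limma threshold, where 0.0105% of all genes tested were called higher and 0.0% lower. By the 2-fold rule in every pair it was 0, against 9.3% of all genes tested. The groups did not overlap for 4 (22.2%), anti-PHGDH being higher, against 38.3%. The median ratio of the list within replicate number 2 was 1.16, against 1.14 for all genes tested and 1.66 for the 8 members. The highest were DELE1, which relays mitochondrial stress to the kinase HRI (1.59), EIF2AK1, the gene of HRI itself (1.46), and EIF2S1, the eIF2 subunit that is phosphorylated (1.41). EIF2AK1 reached 130 and 73.2 CPM in anti-PHGDH 1 and 2, compared with 0 and 50.0 CPM in IgG 1 and 2. EIF2S1 gave 58.2 and 83.0 CPM in the anti-PHGDH libraries, against 56.8 and 58.9 CPM in the IgG libraries, a case in which IgG 1 and IgG 2 were level.

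Of 34 other basic leucine zipper factors, 25 were tested. The limma threshold was passed by 0.0105% (higher) and 0.0% (lower) of all genes tested, and by 0 of these 25. The 2 that were 2-fold higher in every pair (8.00%, against 9.3% of all genes tested) were TEF and BACH1. The groups did not overlap for 9 with anti-PHGDH higher (36.0%, against 38.3%) and for 3 of 25 with IgG higher, against 6.16%. TEF rested on 1 read in IgG 2, and BACH1 reached 12.8 and 10.7 CPM in anti-PHGDH 1 and 2, compared with 0 and 3.80 CPM in IgG 1 and 2. The median ratio of the list within replicate number 2 was 1.10. The lowest was NFIL3, at 0.464 (95% exact interval 0.131 to 1.36).

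Of 37 further reported targets of ATF4, 33 were tested and 1, PHGDH, passed the limma threshold (adjusted p = 0.0062), where 0.0105% of all genes did. PHGDH was at 0 in IgG 1, and its own SD was 4.55 where the SE from the trend was 1.45. Without the trend, after centring, in edgeR and in DESeq2, 0 genes were called higher, PHGDH included. PHGDH and the glycine transporter SLC6A9 were 2-fold higher in every pair (6.06% of those tested, against 9.3% of all genes). The groups did not overlap for 16 with anti-PHGDH higher (48.5%, against 38.3%) and for 2 of 33 with IgG higher, against 6.16%. SLC6A9 gave 13.4 and 10.7 CPM in the anti-PHGDH libraries, against 0 and 3.80 CPM in the IgG libraries. The median ratio of the list within replicate number 2 was 1.19, and the lowest was NARS1 at 0.749, an asparaginyl-tRNA synthetase mRNA that stood at 1033 CPM in IgG 1 and at 51.7 to 77.9 CPM in the other 3 libraries.

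Of 12 other mRNAs with reported upstream-frame control, 10 were tested. The limma threshold was passed by 0, where 0.0105% of all genes tested were called higher and 0.0% lower. By the 2-fold rule in every pair it was 0 of 10, against 9.3% of all genes. The groups did not overlap for 4 with anti-PHGDH higher (40.0%, against 38.3% of all genes tested). They did not overlap for 1 of 10 with IgG higher, against 6.16%. Their median ratio within replicate number 2 was 1.20. SLC35A4 and C19orf48 had the highest ratios in that pair of libraries, 1.59 and 1.48, and far higher ratios of anti-PHGDH 1 to IgG 2, 11.5 and 7.47. C19orf48 reached 1452 and 287 CPM in anti-PHGDH 1 and 2, compared with 0 and 194 CPM in IgG 1 and 2. For SLC35A4 and C19orf48 the anti-PHGDH libraries disagreed, but the median ratio of anti-PHGDH 1 to anti-PHGDH 2 over the 10 tested was 1.08. For ATF4 that ratio had an interval that included 1.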

How the data were processed

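RIP-seq tables of 4 HEK293T libraries were used. The authors deposited CPM per gene symbol, printed to 3 decimals and with the same sum in every library; STAR 2.5.4b, featureCounts and hg38 are named per the submitters' processing notes, and the annotation, strand setting and duplicate handling are not given in the sources used here. Reads were recovered from the CPM steps, and 99.98 to 100% of values above 0 were whole reads; the 7 others were rounded in count models. No molecular identifiers are named, so PCR copies may be counted.

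The fit was limma 3.58.1 (R 4.3.3), two-sided, with an intensity trend, on log2(CPM + 1) of the 9524 genes that reached 5 CPM in 2 or more libraries, Benjamini-Hochberg adjusted over all of them. It understates changes of low genes. Its prior degrees of freedom were infinite, so each SE follows the trend and not the gene's own spread. Intervals of ratios are 95% exact (Clopper-Pearson, scipy 1.17.1) on reads. Alternatives covered pseudocount, filter, scaling, the fit, the replicate block, left-out libraries, edgeR 4.0.16 and DESeq2 1.42.0. RefSeq (GRCh38.p14) matched all 10 members.

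The members and lists were chosen with earlier results of these data known. Named genes are the members, PHGDH and BECN1, the 3 highest and 1 lowest ratio of each further list within replicate number 2, and the 5 nearest to ATF4; from each list the text gives those that carry a description. The genes with a higher ratio than ATF4 at its level, and relatives or overlapping neighbours of members, were named after their values were seen. RefSeq lists 4 symbols beginning ATF4P, pseudogenes of ATF4, which were not analysed here. Nothing says which libraries share a lysate, so p-values speak for these libraries only. The spread behind the limma p-values is the trend across genes, not that of the gene itself between libraries.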

Additional observations from a re-analysis of the deposited data

How the results depend on the processing

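The log2 difference of ATF4 (3.58) was positive in all 19 alternatives, from 1.08 after centring on library medians to 5.46, and passed the threshold only without IgG 2. Across fits that each left out 1 library, in which the lone library of an arm is assumed to vary like the other arm, it ran from 1.69 to 5.46. Its margin over the median of the other members (1.5) was -0.052 with a pseudocount of 0.1, 0.018 in edgeR with the replicate block, 2.28 with a pseudocount of 5, 3.24 when quantile normalized, and from 0.85 to 2.24 without 1 library; the cause was not tested beyond the 0 values in IgG 1, which a small pseudocount moves farthest. The margin of the members' median over all genes (0.39) was 1.20 with no filter and ran from -0.021 (without anti-PHGDH 2) to 1.19 (without IgG 2). The ATF4 ratio within replicate number 2 (3.34) was 2.95 with TMM factors, 2.68 after centring and 2.84 after quantile normalization. Members 2-fold higher in every pair (1, with 886 of 9524 genes tested) numbered 0 after centring (109 genes) and 2 when quantile normalized (292). Without 1 library they numbered 1 to 8, and the 8 came without IgG 2, where 7206 genes passed. They numbered 3 at 1.5-fold and 0 at 4-fold. All genes were not counted at those folds, so these numbers cannot be read as a result about the members. Members called higher were 0 in all fits but that without IgG 2 (8, so from 0 to 8). At an unadjusted p under 0.05, edgeR and DESeq2 had 0 members each.

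The sign turned after centring for DDIT3 (-0.46), DDIT4 (-0.42), CHAC1 (-0.50) and PPP1R15A (-1.001), and after quantile normalization for the same 4 (-0.18, -0.43, -0.080 and -0.44). Without 1 library the ranges were -0.96 to 5.05 for DDIT3, -1.19 to 5.35 for DDIT4 and -0.10 to 4.08 for CHAC1. Centring moves all genes by 1 constant, which here rests on a median of 0 in IgG 1, so those turns follow from it. Quantile normalization meets the same tied 0 values. After centring, the median of all genes was -0.57, and DDIT3, DDIT4 and CHAC1 lay above it.

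Over all genes, 1 was called higher and 0 lower. The higher count was 11 (pseudocount 0.1), 3 (filter 1 CPM), 6 with no filter, 3 with a robust trend, 0 after centring, 0 without the trend, 0 in edgeR with or without the replicate block, 0 in DESeq2 and 0 to 7129 without 1 library, with 0 to 1032 lower. At an unadjusted p under 0.05, edgeR had 21 higher and 162 lower, and DESeq2 89 and 149. The deviations of libraries with the same replicate number had a correlation of 0.01 over genes. The many 0 values of IgG 1 enter that correlation, so it cannot show whether libraries of the same number belong together. With the replicate block the higher count was 4 and the ATF4 difference 3.58 (limma adjusted p = 0.807). In IgG 2, ATF5, PPP1R15A, ASNS and SESN2 rest on 13, 9, 1 and 0 reads, which limits what depth can show for them.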

Other observations

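Relatives of the members that were on no list gave these values, chosen after the tables were seen. TRIB1, a second member of the tribbles family, reached 59.7 and 23.8 CPM in anti-PHGDH 1 and 2, compared with 0 and 16.5 CPM in IgG 1 and 2. SESN3, a sestrin like SESN2, gave 16.6 and 18.9 CPM in the anti-PHGDH libraries, against 842 and 10.8 CPM in the IgG libraries, so IgG 1 stood far above the other 3 libraries. SESN1 reached 5.65 and 1.64 CPM in anti-PHGDH 1 and 2, compared with 3.87 and 8.86 CPM in IgG 1 and 2. CHAC2, the relative of CHAC1 that is not known as a stress target, gave 10.99 and 6.58 CPM in the anti-PHGDH libraries, against 0 and 6.97 CPM in the IgG libraries. Among the sestrins, SESN2 was the one listed at 0 in all 4 libraries.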
